A study of Mus musculus with 10 samples.

Results

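The 9 genes described here encode CC chemokines and were taken from a table of 16860 genes by their Ensembl identifiers: Ccl2, Ccl3, Ccl4, Ccl5, Ccl7, Ccl8, Ccl9, Ccl11 and Ccl20. All 9 were in the table. They are an incomplete list of the family, and they were chosen by hand, selected on the family name with measured values of these arrays in view. Which of the comparisons between groups were looked at is not recorded, so all 3 are treated as used for the choice. The values of the 9 genes are therefore a description, and no p-value is given for any of them.

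RNA was measured on 6 Affymetrix Mouse Genome 430 2.0 arrays from primary aortic smooth muscle cells of C57BL/6 mice aged 8 weeks, passaged at most 5 times and grown in medium with 10% fetal bovine serum. The HDL group (2 arrays) was loaded with cholesterol for 72 h and then kept for another 72 h with human high-density lipoprotein at 100 µg/mL. The cholesterol group (2 arrays) received cholesterol complexed with methyl-β-cyclodextrin, at 10 µg/mL and a molar ratio of 1 to 6, and was harvested after 72 h. The baseline group (2 arrays) was harvested with no stimulus. No group given the carrier alone, and no loaded group harvested at 144 h without HDL, was analysed here, so cholesterol, carrier and time in culture cannot be told apart, nor can HDL and the later harvest. Whether baseline and loaded cells came from the same isolate is not stated, and that origin cannot be told apart from loading either. The labels do not say that the arrays of a group came from separate cultures or mice. The errors therefore rest only on the spread between arrays, which may be technical. Each error (SE) takes that spread over all groups fitted and draws it toward the spread typical of all genes. It is thus not the spread of the compared arrays alone.

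CC chemokines are small secreted proteins named for a pair of adjacent cysteines near the amino terminus. They bind G protein-coupled receptors on leukocytes and direct their migration along a gradient held on cell surfaces and matrix. Smooth muscle cells of the vessel wall are a known source of monocyte-attracting chemokines in atherosclerosis, the disease in which these cells take up cholesterol. Many CC chemokine genes lie side by side, and their transcription is known to respond to NF-kB, the factor activated by cytokines and microbial products.

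In the RefSeq gene table of mouse assembly GRCm38.p6, matched by symbol, 8 of the 9 genes lay on chromosome 11 and Ccl20 lay on chromosome 1. Ccl2, Ccl7 and Ccl11 were direct neighbours, followed by 1 predicted gene, then Ccl12, Ccl8 and Ccl1. After 52 further annotated genes came Ccl5, a Ccl16 pseudogene and Ccl9. Next came another annotated gene, then Ccl6, then 2 more annotated genes, and last Ccl3 and Ccl4 as direct neighbours. Ccl1, Ccl6 and Ccl12 are not among the 9 genes and were not analysed here.

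Promoter sequences from RefSeq were on hand for 4 of the 9 genes, and they are shown because these genes differed in how they changed: Ccl20 and Ccl8 were higher after cholesterol, Ccl9 was lower, and Ccl3 stayed dim. Each line gives the 250 bases before the annotated start, 5′ to 3′ on the gene's own strand, in build GRCm38.p6. The Ccl20 window is chr1:83116516-83116765 on the plus strand and the Ccl8 window is chr11:82114935-82115184 on the plus strand. The Ccl9 window is chr11:83578637-83578886 on the minus strand and the Ccl3 window is chr11:83649379-83649628 on the minus strand. Capitals mark matches to the kB consensus, a pattern of letters typical of NF-kB sites, and to the TATA box (TATAAA), on either strand.
Ccl20: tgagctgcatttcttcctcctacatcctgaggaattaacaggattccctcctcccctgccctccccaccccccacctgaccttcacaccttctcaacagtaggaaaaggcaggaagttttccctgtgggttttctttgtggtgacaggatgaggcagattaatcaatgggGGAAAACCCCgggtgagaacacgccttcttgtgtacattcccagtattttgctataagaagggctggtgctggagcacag
Ccl8: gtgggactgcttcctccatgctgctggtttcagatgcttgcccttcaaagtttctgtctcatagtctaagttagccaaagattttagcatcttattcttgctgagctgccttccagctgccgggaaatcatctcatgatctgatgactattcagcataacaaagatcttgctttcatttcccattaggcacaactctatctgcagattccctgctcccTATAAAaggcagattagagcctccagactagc
Ccl9: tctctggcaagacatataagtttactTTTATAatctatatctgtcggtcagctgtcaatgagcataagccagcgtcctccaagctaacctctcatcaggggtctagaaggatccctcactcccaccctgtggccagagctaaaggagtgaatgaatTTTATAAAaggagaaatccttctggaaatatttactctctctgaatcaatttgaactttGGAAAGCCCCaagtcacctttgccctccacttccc
Ccl3: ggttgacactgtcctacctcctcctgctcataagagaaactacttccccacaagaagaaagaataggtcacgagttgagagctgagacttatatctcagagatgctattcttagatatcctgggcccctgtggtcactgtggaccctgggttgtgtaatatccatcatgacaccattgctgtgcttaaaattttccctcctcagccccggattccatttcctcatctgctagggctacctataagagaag

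The kB consensus was found in 2 of these 4 windows, at 80 to 71 bases before the start of Ccl20 and at 35 to 26 bases before the start of Ccl9. It was present in 9.55% of the 32851 promoter windows of this length in the table. TATAAA was found in the windows of Ccl8, at 32 to 27 bases before the start, and of Ccl9, and in 12.4% of all windows. The AP-1 motif TGANTCA was found in the Ccl9 window (6.75% of all windows). The C/EBP motif TTNNGNAA was found in those of Ccl3 and Ccl9 (36.8% of all windows), where a match in Ccl9 overlapped the kB match. The interferon motif TTTCNNTTTC (2.98% of all windows) and the STAT motif TTCNNNGAA (7.02%) were in none of the 4. No window was on hand for Ccl2, Ccl4, Ccl5, Ccl7 or Ccl11, and bases farther from the start were not searched. Whether a motif goes with the change of a gene was not tested. A match of letters describes these windows and says nothing of binding.

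Levels are log2 values from Robust Multichip Average (RMA) with the 3 groups normalized together, called analysis II by the submitters. The median over all genes lay between 6.93 and 6.98 on the 6 arrays, and replicate arrays correlated across genes by 0.994 for HDL, 0.997 for cholesterol and 0.998 at baseline. Replicates differed by at least 1 on the log2 scale in 153 genes for HDL, 17 for cholesterol and 3 at baseline. Each gene has its own probes, so values of different genes are not read as amounts of one against another. The share of genes below a value on its array is given only to show where a signal was dim. The smooth muscle label was not checked against marker genes, and markers of leukocytes or endothelial cells were not read, because the table's identifiers could not be tied to gene names other than these 9. In cultures measured as a whole, more cells making a transcript and more transcript per cell cannot be told apart.

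**Figure D1:**
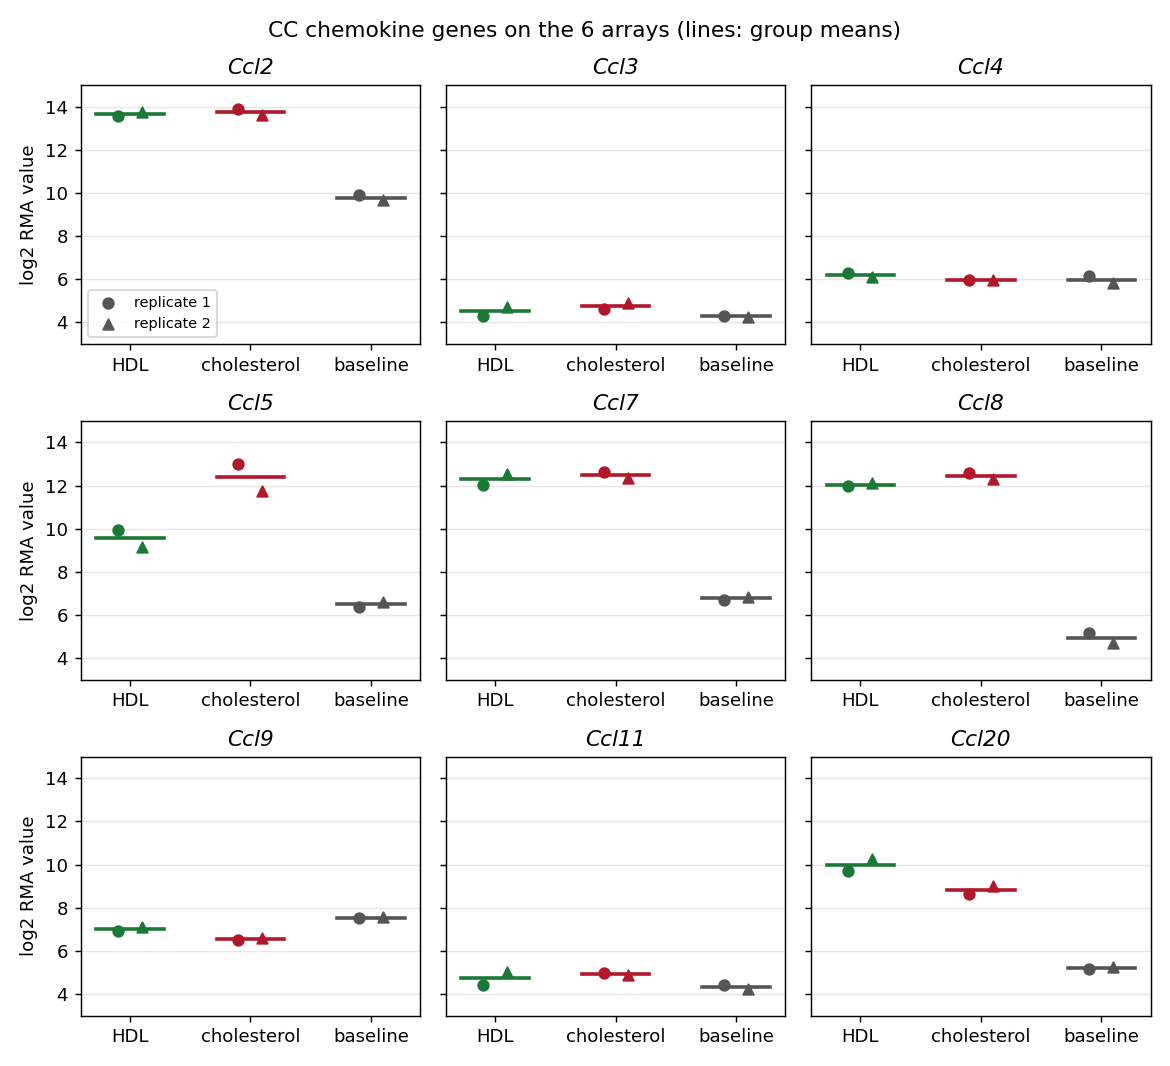
Log2 RMA value (vertical axis, the same in all panels) of each CC chemokine gene on the 6 arrays, by group (horizontal axis), with circles for replicate 1, triangles for replicate 2 and lines for group means. Ccl2, Ccl7 and Ccl8 sit high in both loaded groups, Ccl5 is lower in HDL than in cholesterol arrays, Ccl20 is higher in HDL than in cholesterol arrays, and Ccl3, Ccl4 and Ccl11 stay below 6.5 on every array.

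Cholesterol-loaded cells were first compared with baseline cells, to ask which CC chemokine transcripts changed with loading. The transcripts of 5 genes rose: the ligands of the monocyte receptor Ccr2 (Ccl2 and Ccl7), the related Ccl8, the T cell attractant Ccl5 and the Ccr6 ligand Ccl20. Ccl9 fell, and Ccl3, Ccl4 and Ccl11 did not pass the threshold. The threshold was an adjusted p under 0.05 over all 16860 genes in limma. By it 5 of the 9 genes were called higher, against 10.4% of all genes, and 1 of the 9 was called lower, against 13.1% of all genes. Since the genes were chosen with these values known, nothing is read from that contrast of shares. The cholesterol and baseline arrays did not overlap in 7 genes that were higher (28.1% of all genes) and 1 that was lower (35.4% of all genes). The median change of the 9 genes was 3.60, beside -0.03 for all genes.

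Among the 5 genes called higher, Ccl8 (ENSMUSG00000009185_at) had the widest difference. It lay at 12.58 and 12.31 on the cholesterol arrays, against 5.15 and 4.69 on the baseline arrays. Both cholesterol arrays were thus far above both baseline arrays, by 7.17 to 7.89 on the log2 scale for single pairs of arrays. The change of 7.53 ± 0.17 (SE, n = 2 arrays a group) is 185-fold on this scale. The baseline signal of Ccl8 was dim, above 26.9% and 20.5% of the genes on its arrays, so that fold rests on values near the bottom of the scale. Ccl8 is known in mice as a ligand of Ccr8.

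Ccl7 (ENSMUSG00000035373_at), which acts on Ccr2 and other receptors, lay at 12.61 and 12.36 on the cholesterol arrays, against 6.69 and 6.86 at baseline. The groups did not overlap, and the change was 5.71 ± 0.17 (SE), or 52.3-fold. Ccl2 (ENSMUSG00000035385_at), the main chemokine that draws monocytes out of bone marrow and into tissue, lay at 13.90 and 13.63 after cholesterol, against 9.89 and 9.65 at baseline. Both cholesterol arrays were above both baseline arrays, and the change was 3.99 ± 0.14 (SE), or 15.9-fold.

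Ccl5 (ENSMUSG00000035042_at), also called RANTES, attracts T cells, monocytes and eosinophils. Its values were 13.02 and 11.76 on the cholesterol arrays, against 6.39 and 6.59 at baseline. The groups were well apart, but the cholesterol replicates differed from each other by 1.25, and only 5 of the 16860 genes differed more between those arrays. The change was 5.90 ± 0.40 (SE), the widest error among the 9 genes. Taken from the cholesterol and baseline arrays of Ccl5 alone, that error was 0.63. Ccl20 (ENSMUSG00000026166_at), the only known chemokine ligand of Ccr6, which is carried by dendritic cells and some T and B cells, lay at 8.63 and 8.98 after cholesterol, against 5.15 and 5.27 at baseline. Its change of 3.60 ± 0.20 (SE) was 12.1-fold, with no overlap between groups and with baseline values above 26.9% and 29.8% of the genes on their arrays.

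Ccl9 (ENSMUSG00000019122_at), a ligand of Ccr1 known from mouse myeloid cells and osteoclasts, went the other way. It lay at 6.50 and 6.60 on the cholesterol arrays, against 7.51 and 7.55 on the baseline arrays. Both cholesterol arrays were lower, and the change was -0.98 ± 0.10 (SE), so the baseline level was 1.97-fold the cholesterol level. Ccl9 was the only one of the 9 genes called lower here.

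The neighbours Ccl3 (ENSMUSG00000000982_at) and Ccl4 (ENSMUSG00000018930_at), chemokines typical of activated macrophages and lymphocytes, differed little. Ccl3 read 4.61 and 4.91 after cholesterol, against 4.30 and 4.27 at baseline, a difference of 0.48 ± 0.16 (SE). The arrays did not overlap, but the values were dim, above 18.9% and 23.8% of the genes on the cholesterol arrays. Ccl4 read 5.97 and 5.95 after cholesterol, against 6.14 and 5.83 at baseline, with overlapping arrays and a difference of -0.03 ± 0.13 (SE). Ccl11 (ENSMUSG00000020676_at), known as eotaxin, attracts eosinophils through Ccr3. It read 5.00 and 4.88 after cholesterol, against 4.43 and 4.24 at baseline, a difference of 0.61 ± 0.20 (SE). It too stayed dim, above 25.3% and 23.3% of the genes on the cholesterol arrays. RMA compresses differences of dim genes, and how far it did so here was not tested.

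Within the first chromosome 11 group, the direct neighbours Ccl2 and Ccl7 and the more distant Ccl8 thus differed by 3.99, 5.71 and 7.53 on the log2 scale, while Ccl11, which lies between Ccl7 and Ccl8, differed by 0.61. Within the second, Ccl5 differed by 5.90, Ccl9 by -0.98, Ccl3 by 0.48 and Ccl4 by -0.03. Genes within each group thus differed widely in their change, while the direct neighbours Ccl3 and Ccl4 both changed little. Probes of related chemokines can share sequence, and cross-hybridisation between them was not tested.

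**Figure D2:**
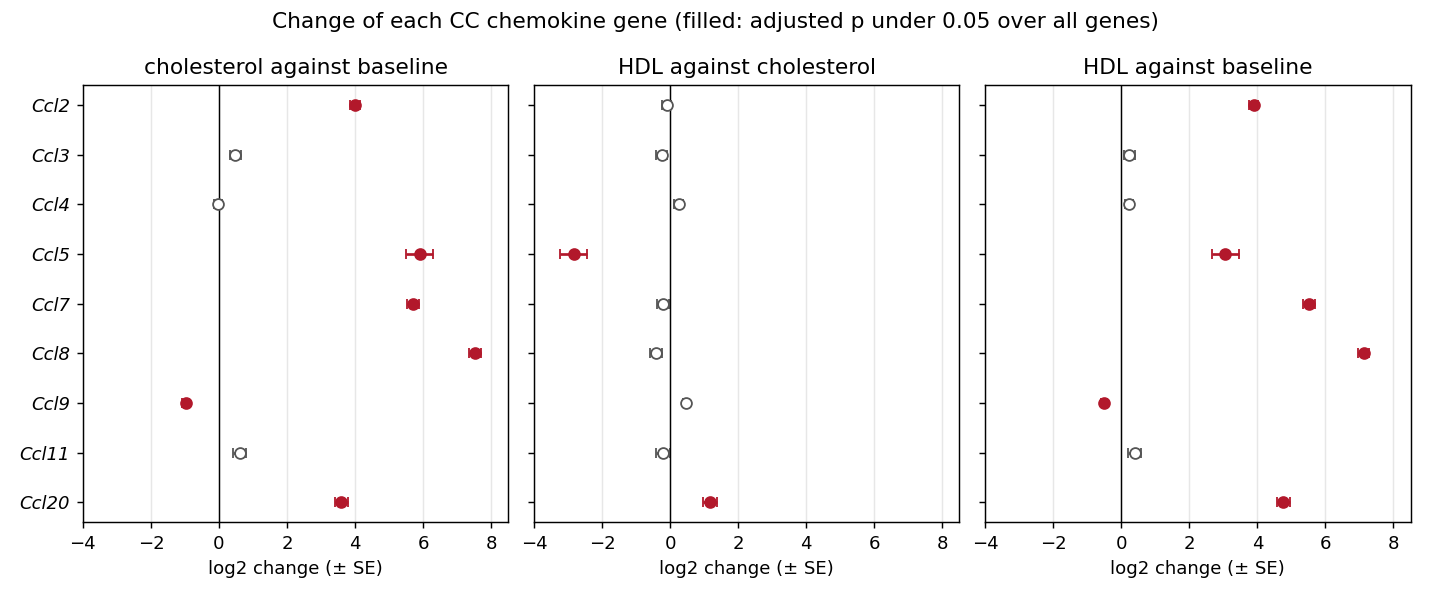
Log2 change (horizontal axis) of each CC chemokine gene (vertical axis) in the 3 comparisons, with bars for ± SE and filled points for an adjusted p under 0.05 over all genes. The 5 filled points right of 0 in the left panel run from 3.60 to 7.53, and in the middle panel only Ccl5 at -2.84 and Ccl20 at 1.17 are filled.

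The submitters compared baseline and cholesterol in a separate normalization of those 4 arrays, analysis I. There 7 of the 9 genes were called higher, against 13.1% of all genes, and Ccl9 was called lower, against 16% of all genes. The genes added were Ccl3, with a change of 0.48 ± 0.12 (SE), and Ccl11, with a change of 0.81 ± 0.14 (SE). The same arrays of analysis II fitted without the HDL arrays also called both, so their calls depend on how the spread is estimated. The other changes were close to those of analysis II, from -1.01 for Ccl9 to 7.56 for Ccl8.

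Levels of Ccl20 moved between the normalizations although its change with cholesterol did not. Its group means were 8.81 after cholesterol and 5.21 at baseline in analysis II. In analysis I they were 9.82 after cholesterol and 6.22 at baseline. The shift of -1.01 in both groups was the second widest of the 16860 genes in each, where the median size of such a shift was 0.05 (log2). Ccl8 shifted by -0.37 in the cholesterol group and by -0.34 at baseline, and Ccl7 by 0.28 in the cholesterol group and by 0.39 at baseline. The change with cholesterol was 3.60 for Ccl20 in both normalizations. A level of Ccl20 on this scale therefore depends on which arrays were normalized together, while its difference between cholesterol and baseline depended on that much less. The HDL arrays were in analysis II only, so the differences of Ccl20 between HDL and the other groups could not be compared in this way.

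**Figure D3:**
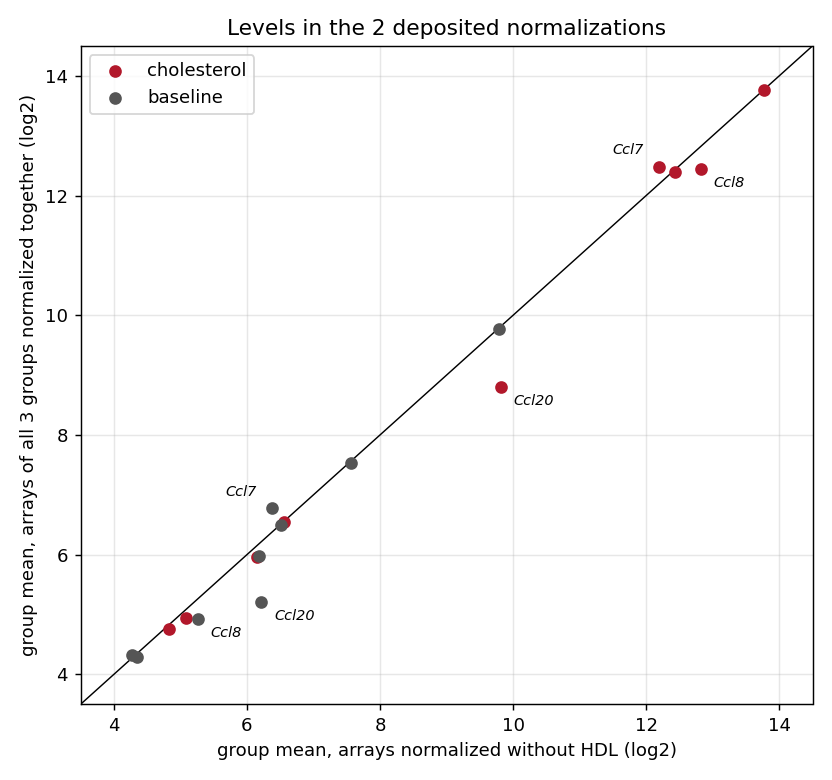
Mean log2 RMA value of each CC chemokine gene in the cholesterol and baseline groups, from the arrays normalized without HDL (horizontal axis) and from all 3 groups normalized together (vertical axis), with the line of equal values. Ccl20 lies off the line by -1.01 in both groups, and Ccl7 and Ccl8, also named, lie off it by less.

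HDL-treated cells were then compared with cholesterol-loaded cells, to ask which of these transcripts changed when an acceptor of cholesterol was present for the last 72 h. Ccl5 fell and Ccl20 rose further, and the other 7 genes did not pass the threshold. In all, 1 of the 9 genes was called lower, against 0.949% of all genes, and 1 was called higher, against 1.79% of all genes. Arrays did not overlap in 3 genes that were higher (24.7% of all genes) and 2 that were lower (22.4% of all genes). The median difference of the 9 genes was -0.20, beside 0.0037 for all genes.

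Ccl5 lay at 9.94 and 9.17 on the HDL arrays, against 13.02 and 11.76 on the cholesterol arrays. Each HDL array was below each cholesterol array, with a difference of -1.82 for the closest pair and -3.85 for the farthest. The change was -2.84 ± 0.40 (SE), so that the cholesterol level was 7.14-fold the HDL level, and it was the lowest change of all 16860 genes. Taken from the HDL and cholesterol arrays of Ccl5 alone, the error was 0.74. Ccl5 nevertheless stayed above both baseline arrays. Its 2 HDL replicates differed by 0.78. Without cholesterol replicate 1, the higher of those arrays, the change was -2.21 and was not called. Nor was it called when either or both of the baseline arrays were left out of the fit, although the change itself stayed at -2.84.

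Ccl20 lay at 9.70 and 10.25 on the HDL arrays, against 8.63 and 8.98 on the cholesterol arrays. Both HDL arrays were higher, by 0.72 to 1.62 for single pairs of arrays, and the change was 1.17 ± 0.20 (SE), or 2.25-fold. The change was 0.99 without cholesterol replicate 1 and 1.35 without cholesterol replicate 2, and neither was called. The change of 1.17 was also not called when either or both of the baseline arrays were left out of the fit. Ccl5 and Ccl20 thus differed in direction on every pair of HDL and cholesterol arrays, which is a description, since both were singled out after their values were seen.

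The Ccr2 ligands Ccl2 and Ccl7 showed no called difference after HDL. Ccl2 lay at 13.56 and 13.77 on the HDL arrays, against 13.90 and 13.63 on the cholesterol arrays, with overlapping groups and a difference of -0.10 ± 0.14 (SE). Ccl7 lay at 12.04 and 12.53 on the HDL arrays, against 12.61 and 12.36 on the cholesterol arrays, again with overlap and a difference of -0.20 ± 0.17 (SE). For Ccl8 the HDL arrays, at 11.96 and 12.11, were both below the cholesterol arrays, at 12.58 and 12.31. Its difference of -0.41 ± 0.17 (SE) is small beside the 7.53 of loading, and it was not called.

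Ccl9 lay at 6.93 and 7.10 on the HDL arrays, against 6.50 and 6.60 on the cholesterol arrays, a difference of 0.47 ± 0.10 (SE) without overlap that was not called. Its HDL level stood between the cholesterol and the baseline levels. Ccl4 read 6.29 and 6.12 on the HDL arrays, against 5.97 and 5.95 on the cholesterol arrays, a difference of 0.25 ± 0.13 (SE). Ccl3 read 4.30 and 4.73 on the HDL arrays, against 4.61 and 4.91 on the cholesterol arrays, with overlap and a difference of -0.25 ± 0.16 (SE). Ccl11 read 4.41 and 5.04 on the HDL arrays, against 5.00 and 4.88 on the cholesterol arrays, with a difference of -0.21 ± 0.20 (SE). Its HDL replicates differed by 0.64, and without HDL replicate 2 its difference was -0.53 and was called lower.

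**Figure D4:**
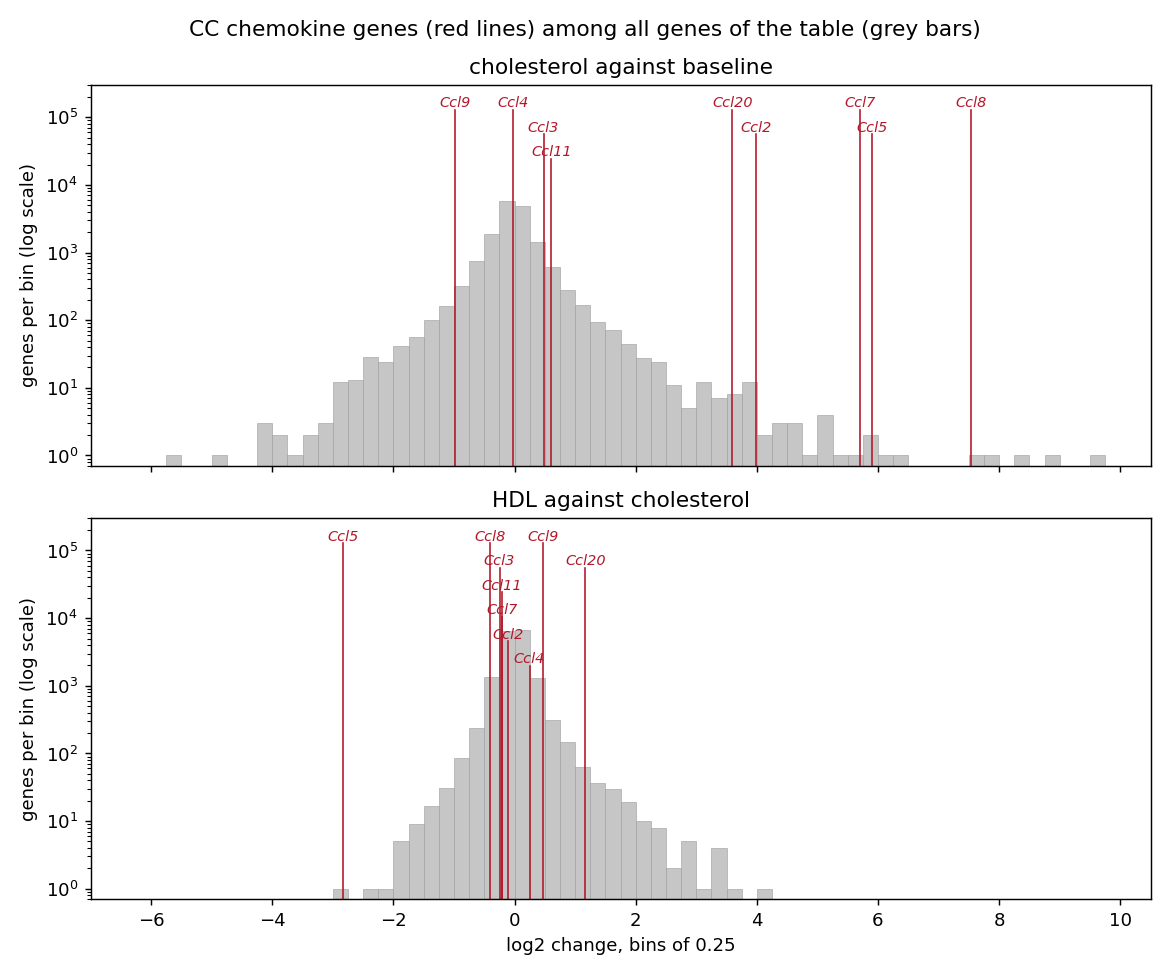
Number of genes (vertical axis, log scale) by log2 change (horizontal axis, bins of 0.25) for cholesterol against baseline (top) and HDL against cholesterol (bottom), with red lines at the CC chemokine genes. Ccl8, Ccl5, Ccl7, Ccl2 and Ccl20 stand in the right tail at the top, and Ccl5 is the leftmost gene of the table at the bottom.

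The HDL group was finally set against baseline, to ask what remained at the end of both treatments. The 5 transcripts that were higher after cholesterol were also higher here, and Ccl9 was again lower. These comparisons share the baseline arrays, so the repeat of the calls is no independent result. In all, 5 of the 9 genes were called higher, against 9.13% of all genes, and 1 was called lower, against 10.9% of all genes. The arrays did not overlap in 6 genes that were higher (25.8% of all genes) and 1 that was lower (33.3% of all genes). The median change was 3.06 for the 9 genes and -0.02 for all genes.

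Side by side, the change against baseline was 7.12 ± 0.17 with HDL and 7.53 ± 0.17 with cholesterol for Ccl8 (SE throughout). For Ccl7 it was 5.51 ± 0.17 with HDL and 5.71 ± 0.17 with cholesterol. For Ccl2 it was 3.89 ± 0.14 with HDL and 3.99 ± 0.14 with cholesterol. Ccl8, Ccl7 and Ccl2 were thus still far above baseline after HDL. For Ccl20 it was 4.77 ± 0.20 with HDL and 3.60 ± 0.20 with cholesterol, which puts its highest level in the HDL group. For Ccl5 it was 3.06 ± 0.40 with HDL and 5.90 ± 0.40 with cholesterol, which leaves an 8.35-fold difference from baseline. For Ccl9 it was -0.51 ± 0.10 with HDL and -0.98 ± 0.10 with cholesterol, and the HDL call was lost without baseline replicate 1 (-0.53) and without baseline replicate 2 (-0.49). Ccl3, Ccl4 and Ccl11 differed from baseline by 0.23 ± 0.16, 0.22 ± 0.13 and 0.39 ± 0.20 with HDL and were not called. For Ccl11 the value without HDL replicate 1 was 0.71, and it was called higher there.

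In order of level across groups, Ccl20 was highest with HDL, next with cholesterol and lowest at baseline, with no overlap between neighbouring groups. Ccl5 and Ccl8 were highest with cholesterol, next with HDL and lowest at baseline, also without overlap. Ccl2 and Ccl7 had cholesterol and HDL arrays that overlapped, both above baseline. Ccl9 was lowest with cholesterol, next with HDL and highest at baseline, without overlap. For Ccl3 the HDL arrays overlapped with the cholesterol arrays, and for Ccl11 with both other groups. For Ccl4 the baseline arrays overlapped with both other groups, while both HDL arrays were above both cholesterol arrays.

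Which replicate array was the higher one varied among these genes, and the same count over all genes was not made. On the cholesterol arrays replicate 1 was the higher one for 6 of the 9 genes. On the HDL arrays replicate 2 was the higher one for 7 of the 9, Ccl4 and Ccl5 being the others. At baseline replicate 1 was higher for 5 of the 9. In the cholesterol group the gap between replicates ran from 0.013 for Ccl4 to 1.25 for Ccl5. In the HDL group it ran from 0.15 for Ccl8 to 0.78 for Ccl5.

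Likeness was measured as the distance over the 6 arrays between log2 values after subtracting each gene's baseline mean. Among the 9 genes Ccl2 and Ccl20 were each other's nearest, at a distance of 1.47, and so were Ccl3 and Ccl11, at 0.46. The nearest of the 9 to Ccl5 was Ccl2, at 3.11. The nearest to Ccl7 was Ccl20, at 3.20, and the nearest to Ccl8 was Ccl7, at 3.47. Outside the 9, 16851 genes were compared. Of these, 18 lay nearer to Ccl2 than Ccl20 did, and 6 nearer to Ccl20 than Ccl2 did. For Ccl5, Ccl7 and Ccl8 the counts were 16, 18 and 5. More lay nearer for Ccl11, with 118, and for Ccl3, with 525. The 9 genes were chosen with these values in view, so nothing is read from the counts. For Ccl4 and Ccl9, 12242 and 11302 genes lay nearer than any of the 9. Of the genes that are not among the 9, ENSMUSG00000036446_at lay nearest to the mean profile of the 6 genes called for cholesterol, at a distance of 0.26. That profile averages 5 genes called higher with Ccl9, called lower, and so follows none of them exactly. The mean of ENSMUSG00000036446_at was 10.91 with HDL, 11.01 with cholesterol and 6.82 at baseline. The next was ENSMUSG00000039252_at, at a distance of 0.54, with means of 8.60 with HDL, 9.27 with cholesterol and 4.66 at baseline. The files do not pair these identifiers with names.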

How the data were processed

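Per the series' design text and the submitters' processing notes, the authors background-adjusted, normalized and summarised the arrays with RMA, using custom probe sets of Ensembl release 59. The deposited table holds log2 values per gene, from 4 arrays without HDL (analysis I) and from all 6 arrays (analysis II). No RMA software version is given in the sources used here. The method gives all arrays one distribution, so a change in total RNA per cell does not show. The number of arrays limits the precision.

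Analysis II was used as deposited, with no filter and no further normalization. One limma 3.58.1 fit in R 4.3.3 (lmFit and eBayes, group as sole term, two-sided) held the 3 groups, with 3 residual and 4.03 prior degrees of freedom. A call needed a p below 0.05 after Benjamini-Hochberg adjustment across all 16860 genes. The script was tested on simulated data.

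The 9 genes and all lists were chosen with earlier results of these data known. All 9 are named by the rule that listed them, since 0 identifiers of the table were in the reference table. For that reason 9 lists by symbol, with 103 entries for other ligands, receptors, regulators and cell types, were not used, and likeness named 2 identifiers. Alternatives left out each array, added the replicate number, restricted, weighted or centred the arrays, left out genes with a mean under 5, changed the variance model or used analysis I. Differences between single pairs of arrays were added after the data had been seen.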

Additional observations from a re-analysis of the deposited data

How the results depend on the processing

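Under the alternatives run, the changes of Ccl2, Ccl5, Ccl7, Ccl8 and Ccl20 against baseline kept their direction with cholesterol and with HDL, and so did that of Ccl9, between -1.03 and -0.92 with cholesterol and between -0.59 and -0.43 with HDL. No one-way test over all 3 groups together was run, so what it would call is not known. A one-way test per gene was run on the arrays of the 2 groups compared alone, with fewer degrees of freedom. It called 0 of the 9 genes higher and 0 lower in each of the 3 comparisons. Over the whole table it called 3, 0 and 0 genes. At an unadjusted p under 0.05, not counted over all genes, the one-way test had 6 higher and 1 lower for loading. It had 1 and 0 for HDL against cholesterol, and 5 and 1 for HDL against baseline. The 9 genes were chosen with these values in view, so nothing is read from such unadjusted counts. Limma on the arrays of both groups alone called 0 of the 9 genes higher and 0 lower for HDL against cholesterol, and 145 of all genes. At an unadjusted p under 0.05, again not counted over all genes, it had 2 higher and 2 lower. For cholesterol against baseline it called 7 of the 9 higher and 1 lower, and 4915 of all genes. The fit of all 3 groups called 461 and 3960 of all genes in these comparisons. When arrays were left out singly, which takes the spread of a group with 1 array from the other groups, the counts of the 9 genes were 5 to 7 higher and 1 lower for cholesterol against baseline. They were 0 to 1 higher and 0 to 2 lower for HDL against cholesterol, and 5 to 6 higher and 0 to 1 lower for HDL against baseline. Genes called over the whole table then ran from 1861 to 4915 around 3960, from 74 to 1656 around 461, and from 1263 to 4256 around 3370. The replicate numbers share only a number: deviations of equal numbers correlated across genes by 0.13 between HDL and cholesterol, 0.0053 between HDL and baseline and 0.016 between cholesterol and baseline. With the replicate block 6 of the 9 genes were called higher and 1 lower with loading, Ccl3 being the one added. It called 1 and 1 for HDL against cholesterol, and 5 and 1 for HDL against baseline. Over the whole table it called 3788, 392 and 3285 genes in these 3 comparisons. Leaving out genes with a mean under 5 removed Ccl3 and Ccl11 and left the calls of the other 7 as they were. Ccl3 and Ccl11 gained the call for loading in 6 and 5 of 13 alternatives, and Ccl20 and Ccl5 lost the call for HDL against cholesterol in 6 and 5 of 13. These alternatives are not all separate. Leaving out either array of the group not compared, or both, gives the same result, so these counts hold that outcome repeatedly.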
